A study of Mus musculus with 12 samples.

Results

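The integrated stress response and the amino acid supply genes tied to it were followed through their mRNA in B16-F10 cells, a mouse melanoma line, after disruption of the splicing regulators Mbnl1 and Mbnl2 and after exposure to interferon gamma (IFNγ). The gene set was chosen by symbol, with earlier results of these data known, and held 37 of the 23022 genes listed. These were 11 transcription factors and feedback genes, 4 amino acid transporters, 9 enzymes of amino acid and one-carbon synthesis and 11 tRNA synthetases. The lipoprotein receptor gene Vldlr and the secreted factor gene Stc2 completed the set. Stc2 was listed at 0 in all 12 libraries, and the other 36 passed the filter on low values (1 TPM or more in 3 or more libraries; TPM is a transcript's share of all transcripts, corrected for length), as did 11663 genes in all.

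In the integrated stress response, kinases that sense amino acid shortage, unfolded protein, haem deficiency or double-stranded RNA phosphorylate the initiation factor eIF2. General translation then slows while the mRNA of Atf4 is translated more, and the ATF4 protein switches on genes that import amino acids, make serine, asparagine, proline and glycine, and charge tRNAs. Ppp1r15a and Trib3 feed back on the pathway, and Ddit3 (CHOP) and Chac1 are induced when the stress is prolonged. Tumour cells, which have a high demand for amino acids, are known to run the pathway under nutrient limitation.

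The design was 2 by 2, with 3 libraries in each of 4 groups and 5 comparisons. Control cells carried a paired guide construct labelled pgNTC, which the labels call no template control and the study's methods call non-targeting control (NTC). The other cells carried a paired guide against both genes (labelled MBNL1 MBNL2 DKO, here DKO). Each was left unstimulated or treated with IFNγ, at 1 ng/mL for 24 hours by the study's description. All of them expressed Cas9, which the study's methods trace to a single sorted clone, and the edited cells were described as polyclonal with some protein left. Since there was 1 NTC and 1 DKO population, a difference between the populations and an effect of genotype cannot be told apart. No source says that replicates came from separate cultures, so the p-values measure only the spread between these libraries, which may be technical.

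The targeted genes were lower in every DKO library than in every NTC library of the same treatment. The log2 differences were 0.41 (untreated) and 0.47 (IFNγ) for Mbnl1 and 0.20 and 0.23 for Mbnl2, so most of both mRNAs was still present. For its polyclonal single knockouts the study reports indels in most alleles, which mRNA level does not measure. The melanocyte markers Mitf, Sox10, Dct, Tyr, Tyrp1, Pmel and Mlana were all detected, and Ptprc, Cd3e, Epcam and Krt8, markers of leukocytes and epithelium, were at 0 in every library. Of the other markers examined, Lyz2, Pecam1 and Pdgfra stayed under the filter, Cd68 reached at most 6.49 TPM and Col1a1 at most 1.17 TPM. The TPM of all listed genes summed to 844185 to 874612 per NTC library and to 805782 to 827191 per DKO library. Read depth cannot be recovered from TPM and is unknown here.

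A textbook recognition element for ATF4 paired with a C/EBP partner (the C/EBP-ATF response element) has the core TGATGCAA, and a looser form is TGATGNAA, which contains it. Promoter sequence from RefSeq (GRCm38.p6, 250 bases before to 50 after each start site, both strands searched) was at hand for 31 of the 37 genes and not for Cars, Cth, Mars, Nars, Slc7a5 and Wars. TGATGCAA was present for 10 of the 31 genes (32.3%), against 1.03% of all 27025 genes in the promoter table and 0.719% of those that also passed the expression filter. TGATGNAA was present for 13 of 31 (41.9%), against 4.51% of all genes. Examples of the matches are shown because the genes that hold them span every functional class with a measurable member. Each line gives 28 bases, 5′ to 3′ on the strand that carries the motif, with the motif in capitals.
Nupr1, chr7:126625563-126625590, plus strand: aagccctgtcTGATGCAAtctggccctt
Atf3, chr1:191183426-191183453, plus strand: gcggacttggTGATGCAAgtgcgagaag
Chac1, chr2:119351039-119351066, minus strand: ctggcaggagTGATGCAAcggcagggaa
Slc7a11, chr3:50443662-50443689, minus strand: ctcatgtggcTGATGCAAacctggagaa
Slc7a11, chr3:50443643-50443670, plus strand: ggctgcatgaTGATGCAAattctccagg
Pycr1, chr11:120643834-120643861, minus strand: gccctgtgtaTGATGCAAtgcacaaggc
Iars, chr13:49682127-49682154, minus strand: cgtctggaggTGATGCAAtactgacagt
Tars, chr15:11399656-11399683, plus strand: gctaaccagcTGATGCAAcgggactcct
Yars, chr4:129189896-129189923, plus strand: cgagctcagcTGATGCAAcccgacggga
Vldlr, chr19:27216810-27216837, minus strand: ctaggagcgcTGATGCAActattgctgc
Asns, chr6:7693215-7693242, minus strand: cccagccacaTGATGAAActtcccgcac
Trib3, chr2:152344029-152344056, plus strand: cccgcccggcTGATGTAAacctgagcta
Gars, chr6:55037961-55037988, minus strand: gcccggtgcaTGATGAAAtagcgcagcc

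In Slc7a11, which encodes the cystine importer xCT, the core occurs on both strands within the 250 bases before the start site (chr3:50443614-50443863, read on the minus strand, where the second copy appears as its reverse complement TTGCATCA):
Slc7a11 promoter: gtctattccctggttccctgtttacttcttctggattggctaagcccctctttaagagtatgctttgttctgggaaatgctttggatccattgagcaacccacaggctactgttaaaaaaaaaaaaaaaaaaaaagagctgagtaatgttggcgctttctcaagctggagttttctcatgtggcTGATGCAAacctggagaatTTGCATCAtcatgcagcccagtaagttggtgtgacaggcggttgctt

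A match is only a description of the letters in these windows, and binding was not measured. The group was chosen around the ATF4 pathway, so its share with the motif is not independent evidence. Counting the 250 bases before the start alone left TGATGCAA at 8 of 31 genes (25.8%), against 0.918% of all genes. The 10 genes with the core had a median log2 difference between untreated DKO and NTC cells of -0.89, the 3 with the looser form alone had -1.0, and the 17 tested genes without either had -0.78. With IFNγ these medians were -0.76, -1.03 and -0.74.

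Nearly the whole group was lower in DKO cells. Its genes were chosen with earlier results of these data known, so the shares of all tested genes are given for scale only. In untreated cells 35 of the 36 tested genes were lower in DKO than in NTC cells and none was higher (limma, adjusted p under 0.05), where 19.4% of all tested genes were called lower and 17% higher. The median difference in log2(TPM + 1) was -0.78, against -0.01 for all tested genes. With IFNγ 34 of 36 were lower and none higher, against backgrounds of 23.9% lower and 19.5% higher, and the median was -0.72 against -0.01 for all genes. The same 34 genes were lower in both treatments, and these comparisons share no libraries but do share the NTC and DKO populations and the estimate of spread. The 3 DKO values lay wholly below the 3 NTC values for 35 genes in untreated cells (background 26.8%) and for 34 with IFNγ (background 27.2%).

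Summed over the group, TPM was 8353 ± 438 (SD, n = 3) in untreated NTC cells and 4728 ± 77.1 in untreated DKO cells, or 56.6% of NTC. With IFNγ the sums were 7928 ± 38 and 4671 ± 103, or 58.9%. Without the 5 genes of highest mean TPM (Atf4, Sars, Gars, Phgdh and Aars) the DKO share of NTC was 55.8% and 58.7%, so the lower sum did not rest on the most abundant transcripts. In bulk RNA a smaller number of cells with the pathway active and less mRNA in each cell cannot be told apart. The 7 melanocyte markers moved in the same direction, 7 lower in untreated DKO cells and 6 lower with IFNγ (medians -0.53 and -0.57). Their summed TPM was 16647 to 17554 in untreated NTC and 11124 to 11452 in untreated DKO libraries. With IFNγ it was 18050 to 18642 in NTC and 12319 to 12414 in DKO libraries. Of the 9 markers of other cell types, Cd68 (macrophages) and Col1a1 (fibroblasts) moved the opposite way, both called higher in DKO cells, by 0.45 and 0.40 untreated and by 1.10 and 0.67 with IFNγ. The summed TPM of the 9 was 3.604 to 4.001 and 5.38 to 6.33 in untreated NTC and DKO libraries, and 2.95 to 5.58 and 7.85 to 9.15 with IFNγ. The part of either marker list in the result was not tested.

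**Figure D1:**
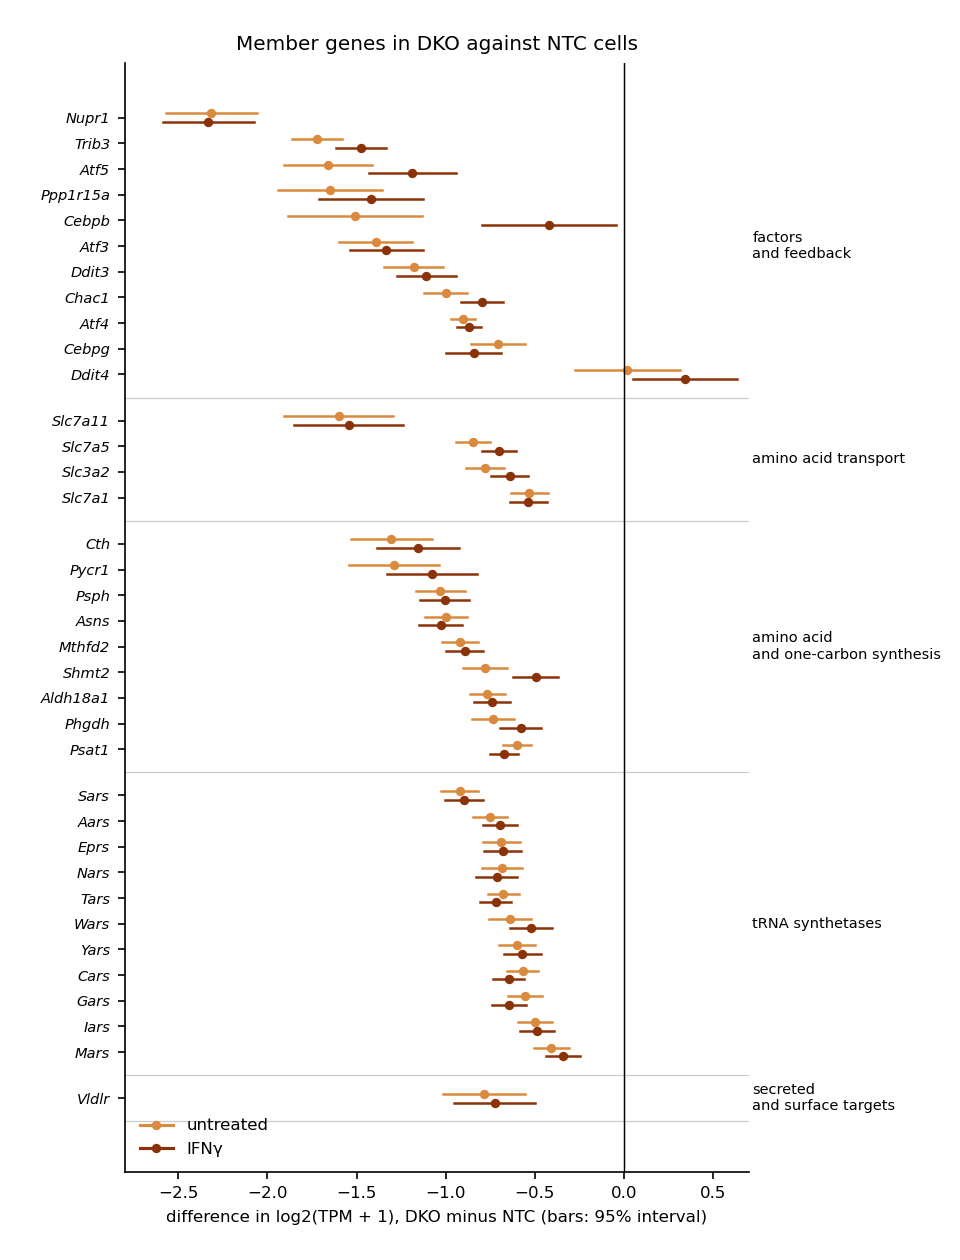
Difference in log2(TPM + 1) between DKO and NTC cells for the 36 tested genes, grouped by role and ordered within a role by the untreated value; points are limma estimates and bars 95% intervals, untreated in light and IFNγ in dark brown. All genes but Ddit4 lie left of 0, from -2.32 for Nupr1 to -0.41 for Mars in untreated cells.

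Among the transcription factors and feedback genes 10 of 11 were lower in untreated DKO cells (median -1.39) and 9 of 11 with IFNγ (median -1.11). Atf4, the central factor, at chromosome 15, 80255184 to 80257541 (GRCm38, plus strand), had 838, 831 and 834 TPM in the untreated NTC libraries and 449, 448 and 440 TPM in the untreated DKO libraries. Atf4 in IFNγ-treated cells was at 809, 851 and 811 TPM for NTC, against 447, 453 and 449 TPM for DKO. The Atf4 replicates were tight and the genotypes were far apart, with DKO cells at 53.4% and 54.6% of the NTC mean. The log2 difference was -0.90 (SE 0.0314, adjusted p = 5.22e-10) untreated and -0.87 with IFNγ (adjusted p = 8.36e-10).

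Nupr1, a small stress-induced chromatin protein (chromosome 7, 126623249 to 126630861, minus strand), had the greatest difference of the group. Its values were 183, 136 and 141 TPM in untreated NTC, and 25.2, 33.7 and 30.9 TPM in untreated DKO cells. The IFNγ-treated NTC libraries had 136, 136 and 156 TPM and the treated DKO libraries 24.7, 28.8 and 29.3 TPM. The lowest NTC library was thus several times the highest DKO library, and DKO means were 19.5% and 19.3% of NTC. The log2 difference was -2.32 (SE 0.118, adjusted p = 2.19e-08) untreated and -2.33 (adjusted p = 2.27e-08) with IFNγ, which ranked 2 and 4 from the lowest among the 11663 tested genes. Nupr1 therefore stood apart from the rest of the group in size, not in direction.

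Trib3, the pseudokinase that restrains the pathway, had 228, 194 and 209 TPM in untreated NTC and 64.8, 64.0 and 59.9 TPM in untreated DKO cells. After IFNγ the NTC libraries had 176, 177 and 172 TPM and the DKO libraries 61.2, 68.4 and 58.1 TPM. All 6 DKO libraries were well below all 6 NTC libraries, by -1.72 (SE 0.0651) untreated and -1.47 with IFNγ (adjusted p = 1.16e-09 and 5.87e-09). The feedback gene Ppp1r15a, which encodes the GADD34 subunit that directs dephosphorylation of eIF2, had 107, 64.0 and 69.5 TPM in untreated NTC and 24.0, 23.6 and 25.2 TPM in untreated DKO cells. With IFNγ the NTC libraries had 64.1, 59.6 and 63.2 TPM and the DKO libraries 23.7, 23.2 and 21.2 TPM. Its first untreated NTC library was far above the other two, and the genotypes did not overlap with or without it. The Ppp1r15a difference was -1.65 (SE 0.136, adjusted p = 1.19e-06) and -1.42 (adjusted p = 3.73e-06).

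Atf5, an ATF4-related factor under similar translational control, had 91.2, 74.4 and 76.4 TPM in untreated NTC and 28.4, 22.5 and 23.6 TPM in untreated DKO cells. Treated NTC libraries had 58.9, 55.4 and 48.4 TPM and treated DKO libraries 21.4, 27.5 and 21.2 TPM, so the genotypes stayed apart while the NTC level was lower than without IFNγ. The differences were -1.66 (SE 0.114) and -1.19 (adjusted p = 2.41e-07 and 3.90e-06). Atf3, a stress-induced repressor, had 33.7, 26.9 and 30.2 TPM in untreated NTC and 11.1, 12.2 and 9.42 TPM in untreated DKO cells. After IFNγ, Atf3 was at 30.3, 29.1 and 27.7 TPM in NTC cells against 11.2, 9.95 and 11.6 TPM in DKO cells. All Atf3 values in DKO cells were under those of NTC cells, by -1.39 (SE 0.0950) and -1.33 (adjusted p = 2.41e-07 and 3.06e-07).

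Ddit3 had 521, 397 and 408 TPM in untreated NTC, 189, 197 and 193 TPM in untreated DKO, 405, 389 and 394 TPM in IFNγ-treated NTC and 183, 188 and 178 TPM in IFNγ-treated DKO cells. Again the first untreated NTC library was the highest, and no DKO library came near the NTC range (-1.18, SE 0.0766, and -1.11, adjusted p = 1.46e-07 and 2.40e-07). Ddit3 and the methionyl-tRNA synthetase gene Mars overlap on opposite strands at chromosome 10, and the libraries were unstranded, so reads from the overlap cannot be assigned to either. Chac1, a glutathione-degrading enzyme, differed by -1.0 and -0.80, and Cebpg, a C/EBP partner of ATF4, by -0.71 and -0.84, all past the threshold.

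Cebpb and Ddit4 were the exceptions. Cebpb, a C/EBP factor of inflammation and stress, had 8.59, 8.97 and 10.2 TPM in untreated NTC cells, and 2.49, 3.12 and 2.24 TPM in untreated DKO cells. IFNγ-treated NTC cells held 3.70, 4.68 and 2.19 TPM and treated DKO cells 2.52, 2.54 and 1.85 TPM. Without IFNγ the genotypes were separate (-1.51, SE 0.175, adjusted p = 2.25e-05), and with it they overlapped (-0.42, SE 0.175, adjusted p = 0.0682). The IFNγ call turned on 1 library: without NTC_IFNg replicate 3, and with the replicate block or a GC content and length trend removed, Cebpb was called lower in DKO, with adjusted p from 0.00239 to 0.289 over all alternatives. Cebpb overlaps Tmem189 on the opposite strand, a gene that reached 97.8 TPM, and unstranded reads from the shared stretch cannot be told apart.

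Ddit4, also known as REDD1, an inhibitor of mTORC1 that many stresses induce, had 189, 262 and 250 TPM in untreated NTC and 271, 215 and 221 TPM in untreated DKO cells. Treated NTC cells had 188, 163 and 138 TPM and treated DKO cells 194, 235 and 190 TPM. The untreated ranges overlapped (0.02, 95% interval -0.27 to 0.31, adjusted p = 0.931). With IFNγ all 3 DKO values were above the NTC values, but the difference of 0.34 (SE 0.136) did not pass the threshold (adjusted p = 0.0565). It passed in 6 of 21 alternatives, among them both other scalings, with adjusted p from 0.0233 to 0.224, and was never called lower.

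**Figure D2:**
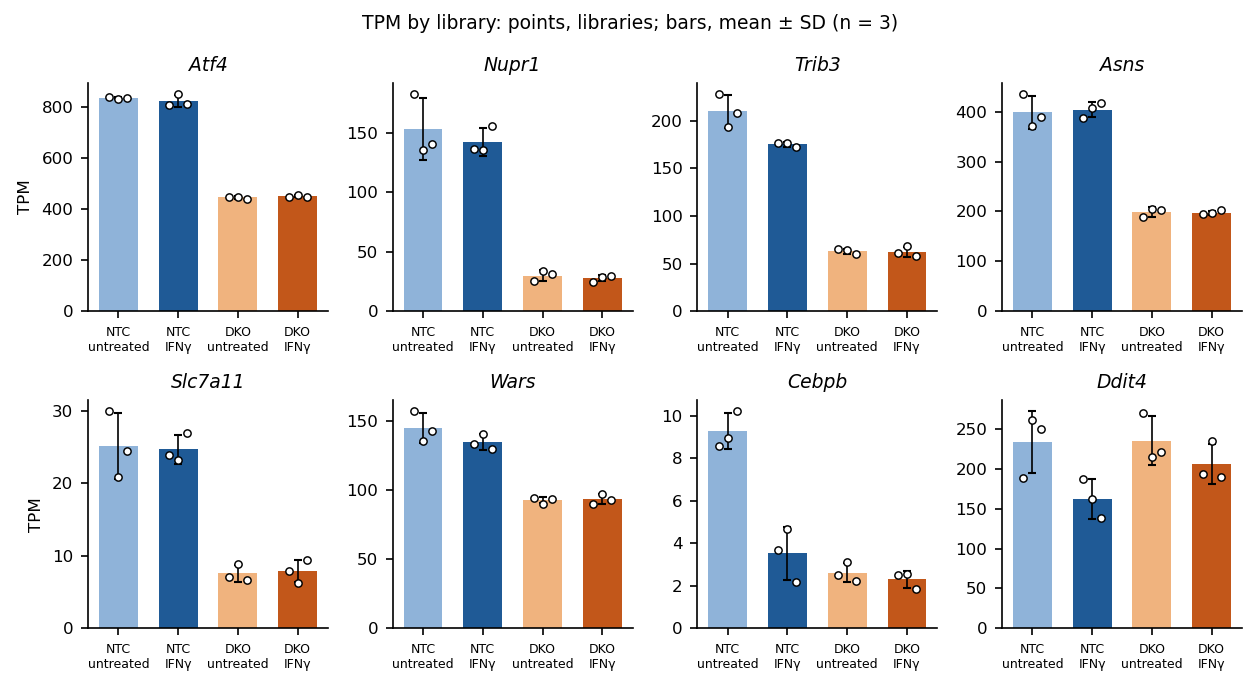
TPM of 8 genes in each of the 12 libraries (points), with the mean (bar) and SD (error bar, n = 3) of each group. Atf4, Nupr1, Trib3, Asns, Slc7a11 and Wars are lower in both DKO groups, Cebpb is high only in the untreated NTC bar, where it averages 9.26 TPM, and Ddit4 does not follow genotype in untreated cells.

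All 4 amino acid transporter genes were lower in DKO cells under both treatments (medians -0.81 and -0.67). Slc7a11 had 29.95, 20.9 and 24.5 TPM in untreated NTC and 7.09, 8.91 and 6.73 TPM in untreated DKO cells. In the presence of IFNγ the NTC libraries had 23.9, 23.2 and 26.9 TPM and the DKO libraries 7.93, 6.30 and 9.40 TPM. The highest DKO library was below the lowest NTC library, and DKO cells held 30.2% and 31.9% of the NTC mean (-1.60, SE 0.141, and -1.54, adjusted p = 2.27e-06 and 2.79e-06). Slc3a2, the heavy chain that both Slc7a11 and the leucine transporter Slc7a5 pair with, was at 302.5 ± 20.2 TPM in untreated NTC and 175.5 ± 1.96 TPM in untreated DKO cells (-0.78). Slc7a5 differed by -0.85 and -0.70, and the cationic amino acid transporter Slc7a1 by -0.53 and -0.54. Slc7a11, the transporter gene of lowest level, thus had the greatest difference of the 4.

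All 9 enzymes of amino acid and one-carbon synthesis were lower as well (medians -0.92 and -0.89). Cth, which makes cysteine from cystathionine, had 61.7, 44.2 and 47.0 TPM in untreated NTC and 17.5, 20.8 and 21.3 TPM in untreated DKO cells. The treated NTC libraries held 48.8, 52.6 and 47.1 TPM and the treated DKO libraries 23.1, 20.8 and 21.02 TPM. The Cth ranges were far apart in each treatment (-1.304, SE 0.106, and -1.16, adjusted p = 1.09e-06 and 2.84e-06). Asns, asparagine synthetase and a classical target of the pathway, was at 399.6 ± 33.0 TPM in untreated NTC and 199.3 ± 9.49 TPM in untreated DKO cells, and at 404.2 ± 15.4 and 197.6 ± 4.26 TPM with IFNγ. Its DKO level was thus 49.9% and 48.9% of NTC (-1.0 and -1.03, adjusted p = 4.08e-08 and 3.24e-08).

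The 3 enzymes of serine synthesis differed in size. Psph, the last step, was at 48.4% of NTC in untreated DKO cells (-1.03), Phgdh, the first step, at 60.0% (-0.73), and Psat1, the middle step, at 65.8% (-0.60). With IFNγ the shares were 49.5%, 67.0% and 62.6%. Reads at Psph may include some from Cct6a, which overlaps it on the opposite strand and reached 337 TPM. Of the mitochondrial one-carbon enzymes, Mthfd2 differed by -0.92 and -0.89 and Shmt2, which turns serine into glycine, by -0.78 and -0.50. Of the proline enzymes, Pycr1 differed by -1.29 and -1.08 and Aldh18a1, the first step, by -0.77 and -0.74. Each of these differences passed the threshold.

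The 11 cytosolic tRNA synthetase genes of the group were lower in both treatments, by a narrower and smaller margin (medians -0.64 and -0.65, range -0.92 to -0.41 untreated). Sars (seryl) was at 701.4 ± 54.6 TPM in untreated NTC and 369.1 ± 12.8 TPM in untreated DKO cells, the greatest difference of the class at -0.92 (SE 0.0491, adjusted p = 2.77e-08). Aars (alanyl, -0.75), Eprs (glutamyl-prolyl, -0.69), Nars (asparaginyl, -0.68), Tars (threonyl, -0.68), Yars (tyrosyl, -0.60), Cars (cysteinyl, -0.57), Gars (glycyl, -0.56) and Iars (isoleucyl, -0.50) followed in untreated cells. Adjacent genes in this order had overlapping 95% intervals, so no order is read between neighbours. The intervals of Aars (-0.85 to -0.66) and Iars (-0.60 to -0.41), at the ends, did not overlap. Reads at Yars may include some from C77080, which overlaps it on the opposite strand and reached 23.6 TPM. Mars (methionyl) had the smallest difference, with 79.1, 82.9 and 82.8 TPM in untreated NTC and 59.9, 62.5 and 61.3 TPM in untreated DKO cells. The Mars groups still did not overlap (-0.41, SE 0.0452, adjusted p = 1.53e-05, and -0.34 with IFNγ). Vldlr, whose mRNA the pathway also raises, was at 9.55 ± 1.61 TPM in untreated NTC and 5.09 ± 0.654 TPM in untreated DKO cells (-0.79, adjusted p = 8.30e-05), and differed by -0.73 with IFNγ.

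**Figure D3:**
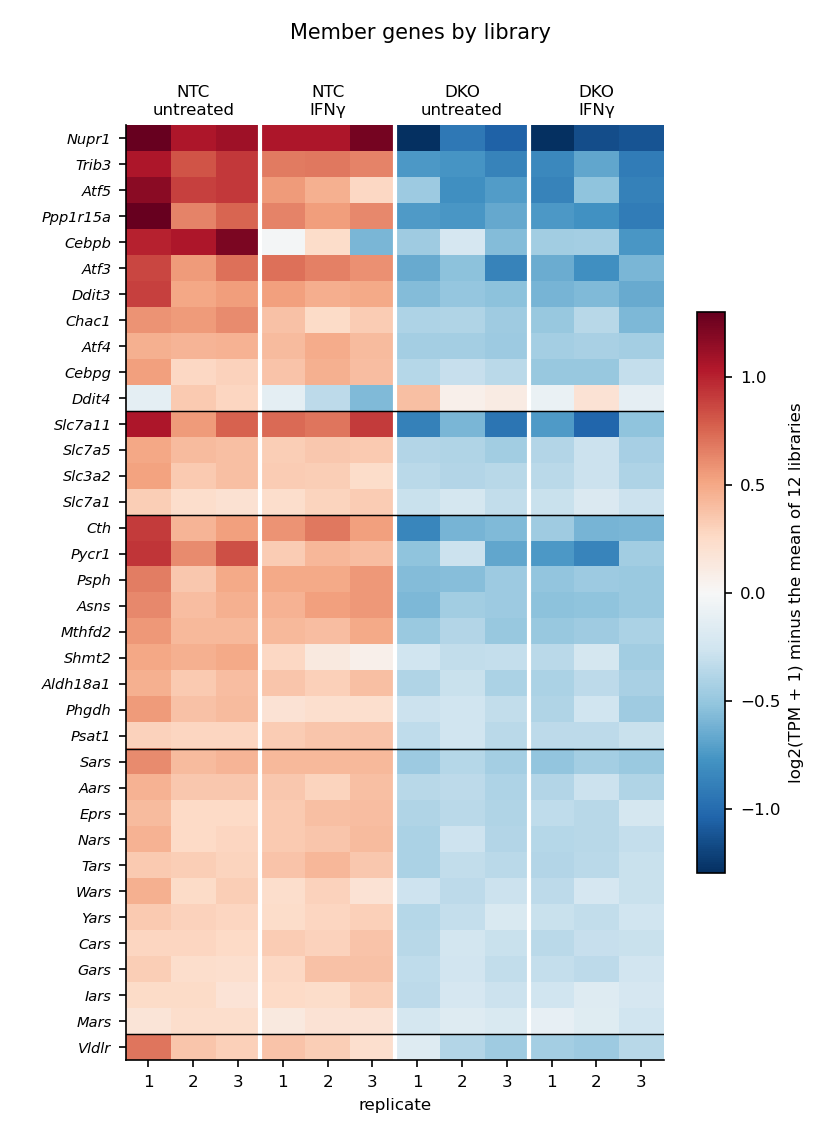
log2(TPM + 1) of the 36 tested genes in each of the 12 libraries, shown as the difference from the gene's mean over all libraries; red is above and blue below that mean, and the colour scale ends at 1.3. The 6 NTC columns are red and the 6 DKO columns blue for nearly every row, Ddit4 does not have that split, Cebpb has it only in part since its IFNγ-treated NTC columns are pale or blue, and the first untreated NTC column is the darkest red.

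One library moved with the group. The first untreated NTC library was the highest of its 3 for 32 of the 36 genes, with a median deviation of 0.10 from the group mean on the log2 scale, while the median over all tested genes deviated by less than 0.01. Without that library the untreated DKO comparison still had 35 genes lower, with a median of -0.75. The members' medians in the other 11 libraries lay between -0.06 and 0.04.

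Wars, the tryptophanyl-tRNA synthetase (chromosome 12, 108860030 to 108894174, minus strand), is known as the synthetase that IFNγ induces in human cells, and was examined in the group for that reason. Its values were 157, 136 and 143 TPM in untreated NTC and 134, 141 and 130 TPM in IFNγ-treated NTC cells. In DKO cells they were 94.5, 90.1 and 93.7 TPM untreated and 90.1, 97.6 and 93.0 TPM with IFNγ. The treated and untreated ranges overlapped in both genotypes, while the genotypes were apart. The IFNγ difference was -0.11 in NTC (95% interval -0.22 to 0.01, adjusted p = 0.201) and 0.01 in DKO cells (-0.11 to 0.13, adjusted p = 0.976), so the intervals reached no higher than 0.01 and 0.13. The difference between the responses was 0.12 (adjusted p = 0.549).

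The cells did respond to IFNγ. Of 5 interferon-induced genes set beside Wars, all 5 rose in both genotypes. Gbp2, a guanylate-binding protein, rose by 2.83 in NTC and 2.55 in DKO cells. The rises were 2.66 and 1.79 for the peptide transporter Tap1, 2.58 and 1.95 for B2m, 2.55 and 1.46 for the proteasome subunit Psmb9 and 1.14 and 0.93 for Irf1. Wars did follow genotype as the other synthetases did, at -0.64 (SE 0.0547, adjusted p = 1.73e-06) untreated and -0.52 (adjusted p = 8.21e-06) with IFNγ. Both values lay within the range of the other synthetases of the group.

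**Figure D4:**
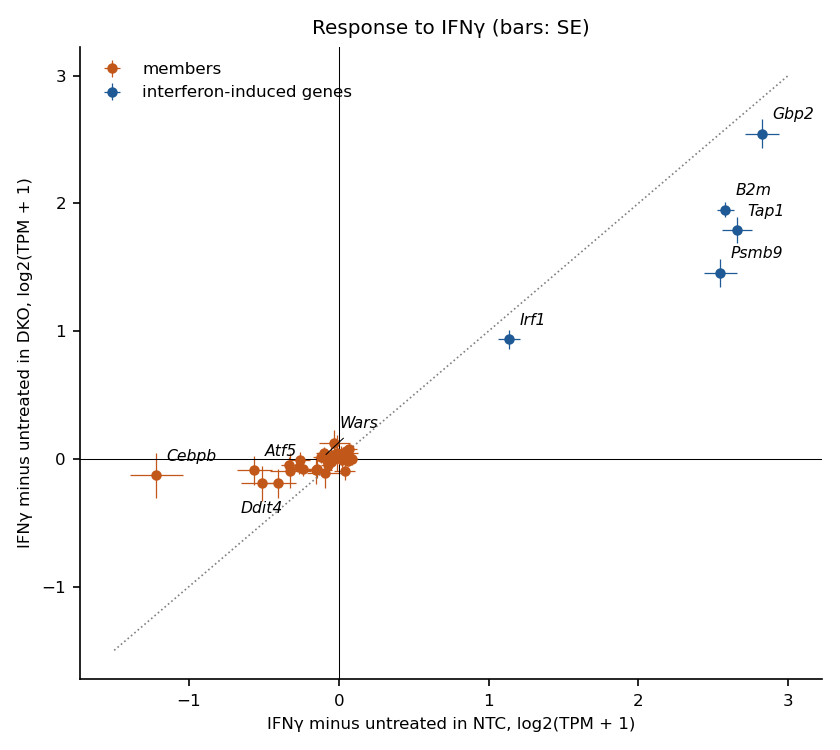
Change with IFNγ in NTC cells (x axis) against the change in DKO cells (y axis), as differences in log2(TPM + 1) with SE bars, for the 36 tested genes (orange) and 5 interferon-induced genes (blue); the dotted line marks equal change, and the 2 axes share no libraries. The interferon-induced genes reach 2.83 on the x axis, while the orange points lie within 0.20 of 0 on the y axis and spread to -1.22 only on the x axis.

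In NTC cells IFNγ lowered 8 of the 36 genes and raised none, against backgrounds of 4.78% lower and 7.31% higher. At an unadjusted p under 0.05, 11 were lower and none higher, where 13.1% of all tested genes were lower and 18.7% higher. The median of the group was -0.05, against 0.02 for all tested genes. Cebpb was lower by -1.22 (SE 0.175, adjusted p = 0.00126), from the values given above, with no overlap between treated and untreated libraries. Atf5 followed at -0.56 (adjusted p = 0.0122) and Ddit4 at -0.52 (adjusted p = 0.0296), whose ranges of 138 to 188 and 189 to 262 TPM only just failed to touch.

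Pycr1 had 25.0, 19.9 and 23.3 TPM untreated and 16.2, 17.4 and 17.0 TPM with IFNγ (-0.40, adjusted p = 0.0420). Shmt2 went from 339, 330 and 336 TPM to 288, 261 and 250 TPM (-0.33, adjusted p = 0.00559). Chac1 went from 139, 137 and 143 TPM to 121, 110 and 117 TPM (-0.27, adjusted p = 0.0126). In each of these the treated libraries were all below the untreated ones. Phgdh, with 583, 518 and 527 TPM untreated and 453, 463 and 462 TPM treated, was lower by -0.24 (adjusted p = 0.0174), and Trib3 by -0.26 (adjusted p = 0.0256). At an unadjusted p under 0.05 (limma) the transporter genes Slc3a2 (-0.12) and Slc7a5 (-0.10) were lower too, while Slc7a11 and Slc7a1 did not pass. The list at the adjusted threshold holds factors, feedback genes and synthesis enzymes but no transporter and no synthetase.

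These small calls were fragile. Without 1 library the count ran from 3 to 8, with 3 when NTC_IFNg replicate 2 or 3 was left out and 4 when NTC_untreated replicate 3 was. With a GC content and length trend removed it was 2, and Cebpb and Shmt2 kept their calls in every alternative. Of the 8 genes, 7 were also lower in untreated DKO than in untreated NTC cells, but those comparisons share the untreated NTC libraries.

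In DKO cells IFNγ changed none of the 36 genes by limma, against backgrounds of 0.677% higher and 0.103% lower. None passed at an unadjusted p under 0.05 either, where 6.28% of all tested genes were higher and 3.32% lower. Differences ran from -0.19 (Pycr1) to 0.12 (Cth). Nupr1 was at -0.09 in NTC and -0.11 in DKO cells, and Atf4 at -0.02 and 0.01, none of them past the threshold. The difference between the responses, DKO minus NTC, passed for no gene of the group (limma), where it passed for 0.00857% of all genes as higher and 0.0257% as lower. At an unadjusted p under 0.05 it was above 0 for 6 of the 36 and below 0 for none, where 5.26% of all tested genes passed as higher and 6.22% as lower. Cebpb was the farthest out, at 1.09 (SE 0.248, adjusted p = 0.338). The loss of IFNγ calls in DKO cells was therefore not shown to be a difference between the genotypes.

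Genes around the group on the same pathway followed in part. Of 15 other ATF4 targets and amino acid transporter genes, 13 passed the filter. Of these, 11 were called lower in untreated DKO cells and 10 with IFNγ, none higher (medians -0.44 and -0.46). The shares of all tested genes called lower were 19.4% and 23.9%. Cbs lay the other way without a call, at 139% of the NTC mean untreated and 110% with IFNγ. Gdf15, under the filter and under 1 TPM, was at 207% and 181%. Both were named after their values were seen. The mitochondrial folate enzyme gene Aldh1l2 differed by -1.25 and -1.22, the alanine transaminase gene Gpt2 by -1.08 and -1.20, and the glycine transporter gene Slc6a9 by -1.03 and -0.98. With IFNγ in NTC cells, Eif4ebp1 (-0.35) and Sesn2 (-0.27) fell and Mthfd1l (0.15) rose.

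Of 15 genes for the eIF2 kinases, their regulators, eIF2 and its exchange factor eIF2B, 2 were higher and 4 lower in DKO cells under each treatment. Over all tested genes 17% were called higher and 19.4% lower untreated, and 19.5% and 23.9% with IFNγ, so these counts were near the background. The medians were 0.06 untreated and -0.00089 with IFNγ. Besides Eif2ak3, Eif2ak1 was called higher untreated (116% of the NTC mean) and Eif2b4 with IFNγ (111%). Eif2ak3, the kinase PERK, had 13.3, 15.0 and 15.5 TPM in untreated NTC and 20.6, 21.8 and 21.5 TPM in untreated DKO cells (0.52, and 0.49 with IFNγ). Eif2s2, the beta subunit of eIF2, had 488, 442 and 450 TPM in untreated NTC and 248, 287 and 277 TPM in untreated DKO cells (-0.77, and -1.0 with IFNγ). The alpha subunit gene Eif2s1, named beside it after its values were seen, was at 0.14 and -0.01 and passed in neither. The amino acid sensor Eif2ak4 (GCN2) differed by -0.25 and -0.29, and Impact, its inhibitor, by -0.30 and -0.50. In IFNγ-treated NTC cells Eif2ak2 (PKR) rose by 0.46 and Eif2s3x by 0.19. Phosphorylation of eIF2 was not measured.

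Synthetase genes outside the group had medians nearer 0. Of 12 other cytosolic synthetase and scaffold genes, 3 were lower and 1 higher in untreated DKO cells and 7 lower with IFNγ (medians -0.07 and -0.17). Lars differed by -0.66 and -0.76, Vars by -0.39 untreated, Aimp1 by -0.22 and -0.48 and Dars by -0.40 with IFNγ, while Qars was higher by 0.15 untreated. In IFNγ-treated NTC cells 6 of these 12 rose, led by Aimp1 (0.32), Dars (0.29) and Rars (0.25), where none of the 11 synthetases of the group passed. Over all tested genes 7.31% were called higher in that comparison. Of 17 mitochondrial synthetase genes, 3 were higher and 3 lower untreated, and 2 higher and 4 lower with IFNγ (medians -0.06 and 0.05). In these DKO comparisons 17% of all tested genes were called higher and 19.4% lower untreated, and 19.5% and 23.9% with IFNγ. The mitochondrial counts were near that background, while the 7 of 12 cytosolic genes lower with IFNγ were above it. Cars2 rose in DKO cells by 0.68 and 0.78, the opposite direction to the cytosolic Cars, and Tars2 fell by 0.45 and 0.44. The lists were compared by counts and medians, and the difference between them was not tested. Genes and lists were chosen with earlier results of these data known, so no difference between classes of synthetase is read from it.

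**Figure D5:**
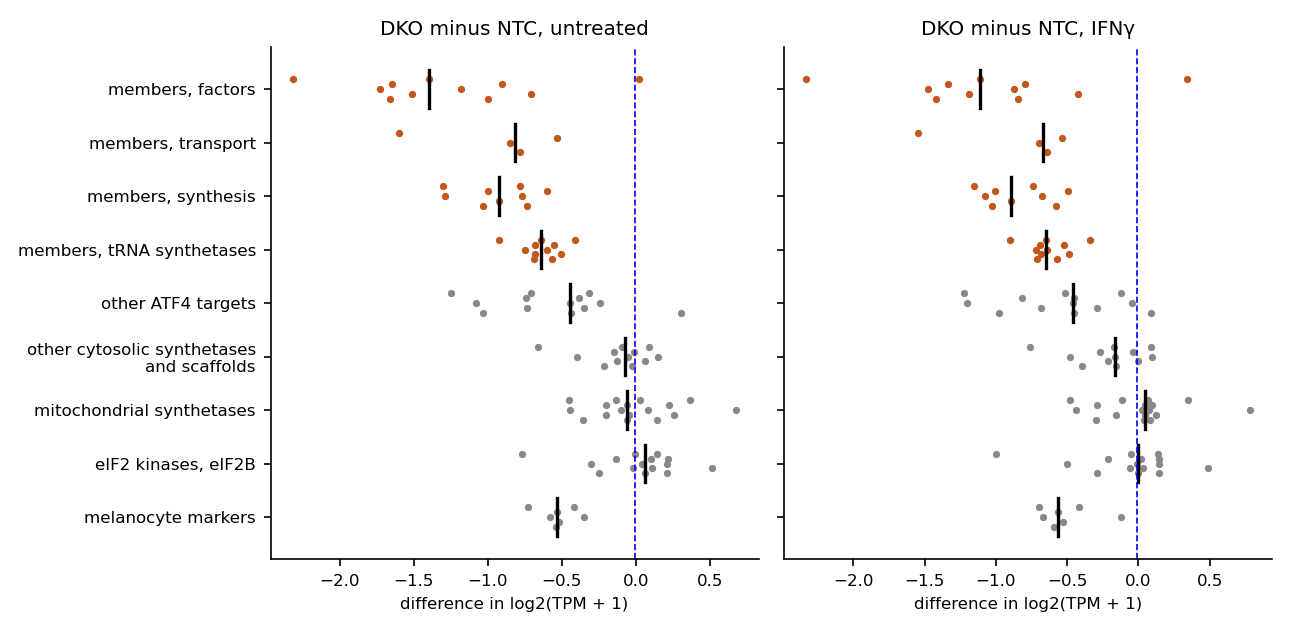
Difference in log2(TPM + 1) between DKO and NTC cells for each tested gene of the 4 main classes of the group (orange) and of 5 other lists (grey), untreated on the left and IFNγ on the right; black bars are medians and the dashed line is the median of all tested genes. Medians of the orange classes lie between -1.39 and -0.64, and those of the synthetases outside the group and of the eIF2 list lie within 0.17 of 0.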

How the data were processed

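Poly(A) RNA was sequenced from 12 libraries (TruSeq, unstranded). The authors mapped reads with RSEM 1.2.4 calling Bowtie, and TopHat 20.8b for the rest, to a merged Ensembl, UCSC and MISO annotation on mm10. The deposited values were taken as TPM per gene, although the table is named as counts. They are not whole numbers, but their sums over the listed genes (805782 to 874612 per library) do not settle the unit. TPM keeps no depth, so no count model was used. Precision rests on the spread between replicates pooled over the 4 groups, so a noisy group widens the intervals of the others. All 12 columns were matched to samples by their labels.

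The values were fitted as log2(TPM + 1) with limma 3.58.1 (R 4.3.3), 1 mean per group over all 12 libraries, with a trend in the prior variance. A gene was tested when 3 or more libraries reached 1 TPM (11663 genes), and p-values were adjusted by Benjamini-Hochberg over all of them at 0.05. Fold changes of low genes are understated on this scale. Tests are two-sided. The fit code was checked on simulated data with independent noise and far fewer changed genes than here. That check does not bear on the calls reported. Gene positions are from GENCODE (GRCm38) and promoters from RefSeq.

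The genes and lists were chosen with earlier results of these data known. Values per library are given for Atf4, Nupr1, Wars and up to 8 genes per comparison with the largest differences among those called without overlap, and up to 3 genes per direction are named from other lists. Alternatives were another pseudocount, no filter, 2 scalings, the replicate block, each library left out, only the libraries compared and no prior trend. A correction for GC content and transcript length, also with the block, was chosen after seeing the data. An interferon-induced gene and a promoter window are not reported here.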

Additional observations from a re-analysis of the deposited data

How the results depend on the processing

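The calls between DKO and NTC cells were stable. In untreated cells 35 genes were called in every alternative, all lower, and with IFNγ 34 or 35. The added gene with IFNγ was Ddit4, called higher, in some alternatives and Cebpb, called lower, in others. Leaving out 1 library gave medians of -0.83 to -0.75 untreated and -0.74 to -0.71 with IFNγ, and scaling to the same total moved the IFNγ median from -0.72 to -0.64. The calls for IFNγ in NTC cells were not stable: 8 genes as reported, 3 to 8 without 1 library, 5 with no trend of the prior variance and 2 with a GC content and length trend removed, with or without the block. The GC alternatives were chosen after seeing the data, and the cause was not tested. The median for IFNγ in NTC cells ran from -0.11 to -0.0083 without 1 library. IFNγ in DKO cells called no gene in any alternative (medians -0.03 to 0.01 without 1 library). The difference between responses also called none, and its median of 0.06 ran from -0.0019 (without NTC_untreated replicate 1, reversed) to 0.089.

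Same-numbered replicates did not deviate together (18 pairs, correlations of deviations -0.18 to 0.18), so the numbers were not taken as pairs. With the replicate block 7 genes were called for IFNγ in NTC, 35 for DKO against NTC untreated and 35 with IFNγ.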
